A study of Mus musculus with 16 samples.

Results

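The 28 genes described here encode enzymes that build cholesterol, the transcription factor SREBP2 with the proteins that hold or release it, and proteins that move sterols or set the number of lipoprotein receptors. They were listed by name from what is known of the pathway, with no measured value in the rule. Earlier results of these data were known when they were chosen. All 28 were found among the 24082 genes of the liver table, each in 1 row, and all 28 were among the 12537 genes tested. The livers came from female C57BL6/J mice aged 9 to 11 weeks at the start of feeding, 4 mice in each of 4 groups. Each mouse gave 1 RNA-seq library. Pair vehicle mice were pair-fed a control liquid diet without drug, and Pair IMC mice received the same diet with iodomethylcholine (IMC) at 0.06% wt/wt. EtOH vehicle mice received a liquid diet in which ethanol rose to 6% vol/vol in the 25-day chronic scheme, and EtOH IMC mice received ethanol and IMC together. IMC is a small molecule that blocks choline TMA lyase, the enzyme with which gut bacteria release trimethylamine from choline. Ethanol-fed mice on IMC also ate less diet and weighed less, so lower intake and IMC cannot be told apart in that group. The paper also marks a body weight difference between pair-fed mice with and without IMC. Control mice were pair-fed, and the part of intake in the Pair IMC results was not tested. Whole liver was sequenced, so fewer cells of a type and less RNA per cell cannot be told apart either.

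Cells make cholesterol from acetyl-CoA through mevalonate, farnesyl diphosphate, squalene and lanosterol. When sterols in the endoplasmic reticulum run low, SCAP carries SREBP2 to the Golgi, where proteases free the part that enters the nucleus and raises transcription of nearly every enzyme of this route. When sterols are plentiful, INSIG proteins hold SCAP back and the same genes are transcribed less. The liver is a major site of cholesterol synthesis and carries out each step of it.

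The libraries held 9632659 to 12601199 reads on genes. Values are the deposited normalized counts, rescaled here so that all 16 libraries share 1 scale, because the deposited scale of ethanol-fed libraries stood 0.191 higher (log2) than that of pair-fed libraries. Hepatocyte markers were high in every library. The 6 markers summed to 1042577 to 1714198 in Pair vehicle, 1547460 to 1664908 in Pair IMC, 968998 to 1108661 in EtOH vehicle and 883209 to 1205731 in EtOH IMC. The Pair IMC and EtOH IMC sums did not overlap. For ethanol their median log2 difference was -0.14 without IMC and -0.32 with IMC, and 0 of the 6 passed the test in either comparison, beside 11.9% and 16.4% of all genes. With IMC 1 of the 6 passed the test in each diet, Hnf4a, a hepatocyte transcription factor, which rose by 0.71 ± 0.13 (log2, SE) in pair-fed and 0.62 ± 0.13 in ethanol-fed mice. The other 5 did not pass, and 3 of the 6 lay below 0 in each diet (lowest -0.11 and -0.34). The 7 macrophage markers summed to 2327 to 6682 and the 6 endothelial markers to 2901 to 3925, while the 5 lymphocyte markers stayed between 6.78 and 70.3 and 3 of 5 pancreatic acinar markers were at 0 throughout. The 5 acinar markers summed to 7.13 to 43.1 in Pair vehicle, 6.82 to 16.4 in Pair IMC, 0 to 19.2 in EtOH vehicle and 0.996 to 14.2 in EtOH IMC. The 1 acinar marker abundant enough to test, the protease precursor gene Ctrb1, fell by 3.56 ± 0.96 with IMC in pair-fed mice (mean normalized count 0.748 from 24.8) and fell by 1.93 ± 0.68 in the average over diets. The 5 bile duct markers ran from 134 to 482 in Pair vehicle against 81.9 to 125 in Pair IMC, and the 6 stellate and fibroblast markers from 4230 to 5075 in EtOH vehicle against 2722 to 3675 in EtOH IMC. The part of these marker differences in the results was not tested. Library numbers 1 to 8 held only Pair IMC and EtOH vehicle mice, and numbers 9 to 16 only Pair vehicle and EtOH IMC mice, so library number cannot be told apart from the effect of IMC within 1 diet, from the difference of that effect between diets, or from the effect of ethanol with or without IMC. Averaging the effect of IMC over the diets balances these numbers.

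Library 8 stood apart within Pair IMC. Of the 28 members, 22 were highest there among the 4 Pair IMC livers, and its members lay 0.33 (log2, mean over members) above their mean over all 16 libraries, against -0.23, -0.63 and -0.50 in libraries 2, 4 and 6. Pair-fed results are therefore also given without it. Library 8 was singled out by these same member values. Larger falls, lower adjusted p and added calls without it therefore follow from that choice and are not separate evidence.

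Promoter sequences of 23 members were found in the RefSeq table (GRCm38.p6), as windows from 250 bases before to 50 bases after the transcription start. Fdps, Fdft1, Sqle, Stard4 and Npc1 had no entry. SREBP2 is known to act beside the general factors NF-Y and Sp1, so the windows were searched on both strands for CCAAT (NF-Y), GGGCGG (Sp1), TCACNCCAC (a sterol regulatory element) and TCACGTGA (an E-box). CCAAT was present in 21 of 23 members (91.3%), in 42.9% of the 9760 tested genes with a window and in 41.1% of all 27025 genes with one. GGGCGG was present in 21 of 23 members (91.3%) and in 66.9% of tested genes. TCACNCCAC was found in Hmgcs1 alone among the members, 137 bases before the start, and in 1.53% of tested genes. TCACGTGA was found in 0 of the 23 and in 2.16% of tested genes. A match of letters is no proof of binding, and a window without one says nothing about a factor elsewhere. The 250 bases before the start are printed for the 4 members with the largest mean fall with IMC and for Mylip, the member that rose, because these show the letters the falling genes share and that the rising gene holds too. Capitals mark CCAAT or its reverse complement ATTGG and, in Hmgcs1, the sterol regulatory element. The marked letters do not overlap each other. The start is that of RefSeq, which for Msmo1 lies within the gene as annotated in GENCODE (chr8:64718139-64733792), so its printed bases lie partly inside that gene.
Msmo1 (chr8:64733579-64733828, minus strand): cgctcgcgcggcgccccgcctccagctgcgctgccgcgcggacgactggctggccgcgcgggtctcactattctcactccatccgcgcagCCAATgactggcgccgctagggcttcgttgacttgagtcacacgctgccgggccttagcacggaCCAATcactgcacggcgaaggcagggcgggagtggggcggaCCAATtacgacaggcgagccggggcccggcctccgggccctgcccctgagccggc
Mvd (chr8:122443423-122443672, minus strand): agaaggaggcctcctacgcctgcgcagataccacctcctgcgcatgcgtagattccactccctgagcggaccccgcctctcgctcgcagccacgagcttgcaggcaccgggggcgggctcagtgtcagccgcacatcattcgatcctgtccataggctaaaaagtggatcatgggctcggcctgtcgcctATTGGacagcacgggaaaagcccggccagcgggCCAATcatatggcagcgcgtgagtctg
Mvk (chr5:114444019-114444268, plus strand): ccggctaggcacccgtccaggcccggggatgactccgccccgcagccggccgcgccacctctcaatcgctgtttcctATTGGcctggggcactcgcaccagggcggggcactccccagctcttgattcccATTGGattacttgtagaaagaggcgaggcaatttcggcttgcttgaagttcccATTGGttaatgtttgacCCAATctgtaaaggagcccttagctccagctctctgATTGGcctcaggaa
Hmgcs1 (chr13:119690101-119690350, plus strand): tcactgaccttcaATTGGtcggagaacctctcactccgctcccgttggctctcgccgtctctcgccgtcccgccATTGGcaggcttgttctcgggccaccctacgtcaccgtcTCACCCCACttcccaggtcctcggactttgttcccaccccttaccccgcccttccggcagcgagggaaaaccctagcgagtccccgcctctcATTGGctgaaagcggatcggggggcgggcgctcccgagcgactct
Mylip (chr13:45389492-45389741, plus strand): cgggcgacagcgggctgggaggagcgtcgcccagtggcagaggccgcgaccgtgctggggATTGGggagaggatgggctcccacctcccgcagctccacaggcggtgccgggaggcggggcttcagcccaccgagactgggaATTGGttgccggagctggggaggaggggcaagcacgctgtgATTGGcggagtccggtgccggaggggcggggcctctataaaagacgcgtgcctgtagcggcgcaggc
Within these 250 bases CCAAT or ATTGG stood 3 times in Msmo1, 2 times in Mvd, 5 times in Mvk, 3 times in Hmgcs1 and 3 times in Mylip. This motif did not separate Mylip from the falling genes shown.

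Genes of cholesterol synthesis were lower in livers of IMC-treated mice in both diets. In pair-fed mice 15 of the 28 members fell and 1, Mylip, rose, beside 9.48% of all genes tested that changed in either direction (5.17% lower, 4.32% higher). In ethanol-fed mice 21 members fell and 0 rose, beside 21.5% of all genes (11.1% lower). Averaged over both diets 22 fell and 1 rose, beside 28.1% of all genes (14% lower, 14.1% higher). The median log2 difference of the members was -0.62 in pair-fed and -0.79 in ethanol-fed mice, where that of all genes was 0.00 in each. The 4 mice on IMC and their 4 controls did not overlap for 10 members in pair-fed (14.3% of all genes) and 17 in ethanol-fed mice (25.3% of all genes). A call means an adjusted p under 0.05 in limma, with Benjamini-Hochberg adjustment over all 12537 genes. Without library 8, 22 members were called in pair-fed mice and the median was -0.84, with the count over all genes not given here. Without library 4 or library 6 only 8 members were called in each case, when calls over all genes also dropped from 1189 to 537 or 543.

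**Figure D1:**
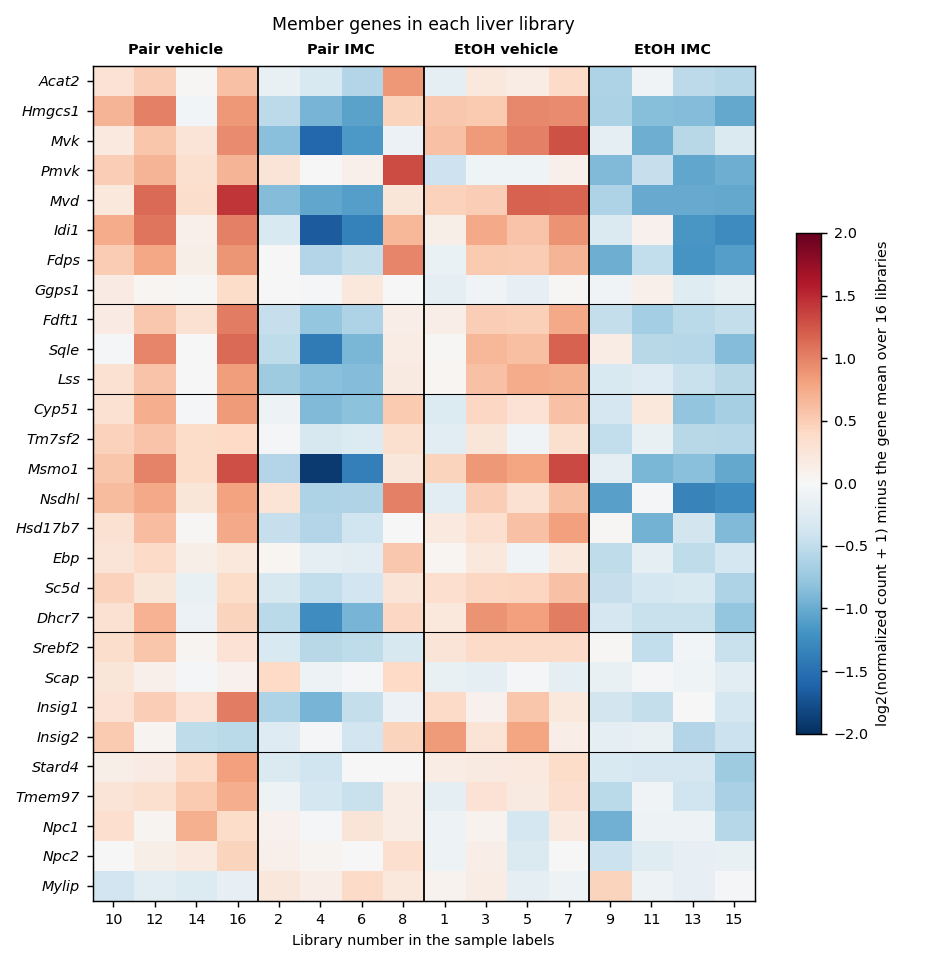
Each cell is the log2(normalized count + 1) of 1 member (rows, grouped by role) in 1 liver library (columns, by library number within the 4 groups), minus the gene's mean over the 16 libraries. Most rows are red in both vehicle groups and blue in both IMC groups, and column 8 of Pair IMC is red in most rows, with 22 of 28 members at their group's highest value.

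The members called in both diets numbered 15, and 24 of the 28 lay below 0 in both. Called in ethanol-fed mice and not in pair-fed mice were Pmvk, Fdps, Nsdhl, Ebp, Sc5d and Insig2, and called in pair-fed mice alone was Mylip. No member passed the test of the difference between diets itself, which is given after the single genes. Acat2, Ggps1, Cyp51, Scap, Npc1 and Npc2 were called in neither diet. In the lists of values that follow, mice stand in the order of their libraries, 10, 12, 14 and 16 for Pair vehicle, 2, 4, 6 and 8 for Pair IMC, 1, 3, 5 and 7 for EtOH vehicle and 9, 11, 13 and 15 for EtOH IMC. Values are normalized counts, and differences are of log2(normalized count + 1) with a standard error (SE). The smallest p that the exact two-sided permutation test of 4 mice against 4 can give is 0.0286, and it was reached wherever groups are said not to overlap.

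Several of the largest falls were in the first steps, from acetyl-CoA to the isoprenoid units. Of the 8 mevalonate and isoprenoid genes 4 fell in pair-fed and 6 in ethanol-fed mice, with median differences of -0.86 and -1.28. Hmgcs1 (ENSMUSG00000093930, chr13:119690379-119708260, plus strand) encodes the synthase that makes HMG-CoA. It was at 8214, 10324, 4941 and 9386 in Pair vehicle and 3592, 2697, 2462 and 7002 in Pair IMC. In ethanol-fed mice it was at 7445, 7410, 9974 and 9915 in EtOH vehicle and 3332, 2868, 2813 and 2534 in EtOH IMC. Every EtOH IMC mouse lay below every EtOH vehicle mouse, while in pair-fed mice library 8 lay above library 14 of the vehicle group. The difference was -1.14 ± 0.26 (adjusted p = 0.013) in pair-fed and -1.58 ± 0.26 (adjusted p = 0.000569) in ethanol-fed mice, a mean fall to 3938 from 8216 and to 2887 from 8686. Mvk (ENSMUSG00000041939, chr5:114444269-114460591, plus strand), mevalonate kinase, was at 217, 279.9, 228 and 369 in Pair vehicle and 106, 63.3, 85.2 and 175 in Pair IMC. With ethanol it was at 287, 345, 382 and 460.0 in EtOH vehicle and 167, 96.6, 129 and 155 in EtOH IMC. Groups overlapped in neither diet, and the differences were -1.41 ± 0.25 (adjusted p = 0.00296) and -1.43 ± 0.25 (adjusted p = 0.000905), close to each other.

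Mvd (ENSMUSG00000006517, chr8:122433601-122443422, minus strand) encodes the decarboxylase that yields isopentenyl diphosphate. It stood at 283, 538, 311 and 658 in Pair vehicle and 133, 118, 113 and 289.7 in Pair IMC. The ethanol-fed mice held 335, 343, 555 and 547 in EtOH vehicle and 158, 120.3, 120.5 and 119 in EtOH IMC. In pair-fed mice a single IMC value, library 8, exceeded the lowest vehicle value, and in ethanol-fed mice 3 of the 4 IMC values were nearly equal. Mvd differed by -1.47 ± 0.29 (adjusted p = 0.00515) and by -1.74 ± 0.29 (adjusted p = 0.000591), the largest fall of any member in ethanol-fed mice. Idi1 (ENSMUSG00000058258, chr13:8885501-8892451, plus strand), the isomerase that interconverts the isoprenoid units, was at 1206, 1517, 776 and 1456 in Pair vehicle and 586, 226, 283 and 1149 in Pair IMC. Its ethanol-fed values were 778, 1219, 1074 and 1348 in EtOH vehicle and 589.6, 764, 319.7 and 302 in EtOH IMC. Pair IMC spread from 226 to 1149, the widest of the 4 groups relative to its mean, and overlapped Pair vehicle only through library 8. Idi1 differed by -1.39 ± 0.40 (adjusted p = 0.0376) and by -1.24 ± 0.40 (adjusted p = 0.0354). Leaving out single libraries ended the call of Hmgcs1 in pair-fed mice (library 4 or 6, adjusted p up to 0.0528), and that of Idi1 in pair-fed mice (library 10, 12, 16, 4 or 6, up to 0.133) and in ethanol-fed mice (library 3, 5, 7, 13 or 15, up to 0.103). Part of the exons of Hmgcs1 (12.1%) and Idi1 (9.22%) overlap genes on the other strand, and no source says that strand was used in counting.

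Pmvk (ENSMUSG00000027952, chr3:89454541-89469013, plus strand), the next kinase after Mvk, was at 874, 999, 780.4 and 1001 in Pair vehicle and 743, 628, 669 and 1536 in Pair IMC. Ethanol-fed mice held 468, 584, 583 and 669 in EtOH vehicle and 335, 452, 301 and 314 in EtOH IMC. Library 8 alone was above all vehicle mice, and in ethanol-fed mice all 4 IMC values were below all vehicle values. Pmvk differed by -0.13 ± 0.21 (adjusted p = 0.757) in pair-fed and -0.72 ± 0.21 (adjusted p = 0.0232) in ethanol-fed mice. It was not called in pair-fed mice without library 8 either. Fdps (ENSMUSG00000059743, chr3:89093588-89101959, minus strand), which makes farnesyl diphosphate, was at 2971, 3589, 2266 and 3854 in Pair vehicle and 2119, 1398, 1507 and 4140 in Pair IMC. The ethanol-fed values were 1906, 3014, 2975 and 3348 in EtOH vehicle and 1066, 1487, 930.1 and 979 in EtOH IMC. Library 8 was again the highest Pair IMC liver, at 4140, and the ethanol groups did not overlap. Fdps differed by -0.58 ± 0.27 (adjusted p = 0.19) and by -1.33 ± 0.27 (adjusted p = 0.00275), and without library 8 by -0.92 (adjusted p = 0.0122) in pair-fed mice. Reads of Fdps are uncertain where 26.7% of its exon length is shared with Gm43738 on the same strand. The call of Pmvk in ethanol-fed mice was lost without library 3, 5, 7, 13 or 15 (adjusted p up to 0.0678).

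Acat2 (ENSMUSG00000023832, chr17:12942890-12960747, minus strand), a cytosolic thiolase that starts the route, was at 1033, 1189, 866 and 1273 in Pair vehicle and 765, 687, 566 and 1543 in Pair IMC. With ethanol it was at 746, 982, 944 and 1109 in EtOH vehicle and 551, 809, 592 and 571 in EtOH IMC. Groups overlapped in both diets, and it passed the test for the average over diets alone, at -0.49 ± 0.16 (adjusted p = 0.0314), a call that 10 of the 16 single-library omissions ended (adjusted p up to 0.0706). In pair-fed mice the difference was -0.39 ± 0.23 (adjusted p = 0.303), and -0.69 (adjusted p = 0.0117) without library 8. Ggps1 (ENSMUSG00000021302, chr13:14050659-14063488, minus strand) makes geranylgeranyl diphosphate, which leaves the sterol route for protein prenylation. Its values ranged from 148 to 187 in Pair vehicle, 141 to 168 in Pair IMC, 128 to 148 in EtOH vehicle and 123 to 156 in EtOH IMC. The groups overlapped in each diet, and the 95% intervals of the IMC difference were -0.34 to 0.11 and -0.22 to 0.23.

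All 3 genes that lead from farnesyl diphosphate to lanosterol fell in both diets, by similar amounts. Fdft1 (ENSMUSG00000021273, chr14:63145150-63179578, minus strand), squalene synthase, was at 1586, 2043, 1741 and 2851 in Pair vehicle and 1020, 828, 919 and 1553 in Pair IMC. In ethanol-fed mice the values were 1545, 1974, 1954 and 2389 in EtOH vehicle and 1014, 875, 973 and 1010 in EtOH IMC. No IMC mouse reached any vehicle mouse in either diet, and the differences were -0.93 ± 0.19 (adjusted p = 0.00518) and -1.01 ± 0.19 (adjusted p = 0.00127). Sqle (ENSMUSG00000022351, chr15:59315077-59331192, plus strand), squalene epoxidase, the oxygen-using step, was at 857, 1722, 871 and 1915 in Pair vehicle and 613, 328, 461 and 961 in Pair IMC. Its ethanol-fed values were 882, 1375, 1325 and 1965 in EtOH vehicle and 961, 592, 586 and 478 in EtOH IMC. The groups overlapped in both diets, through library 8 and through library 9. Sqle differed by -1.19 ± 0.33 (adjusted p = 0.0286) and by -1.08 ± 0.33 (adjusted p = 0.0261). Lss (ENSMUSG00000033105, chr10:76531588-76557138, plus strand), which folds the epoxide into lanosterol, was at 840.4, 1006, 682 and 1215 in Pair vehicle and 417, 379, 373 and 769.7 in Pair IMC. The ethanol-fed mice were at 699.7, 1023, 1139 and 1119 in EtOH vehicle and 552, 569, 499.9 and 464 in EtOH IMC. Library 8 (769.7) stood well above the other Pair IMC livers (373 to 417), and without it the pair-fed difference went from -0.99 ± 0.21 (adjusted p = 0.00895) to -1.23 (adjusted p = 0.000477). In ethanol-fed mice Lss differed by -0.91 ± 0.21 (adjusted p = 0.0061) with no overlap. The call of Sqle was lost in pair-fed mice without library 12, 16, 4 or 6 (adjusted p up to 0.107), and in ethanol-fed mice without library 3, 5, 7, 11, 13 or 15 (up to 0.0871). Fdft1 shares 18.3% of its exon length with Ctsb on the other strand.

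**Figure D2:**
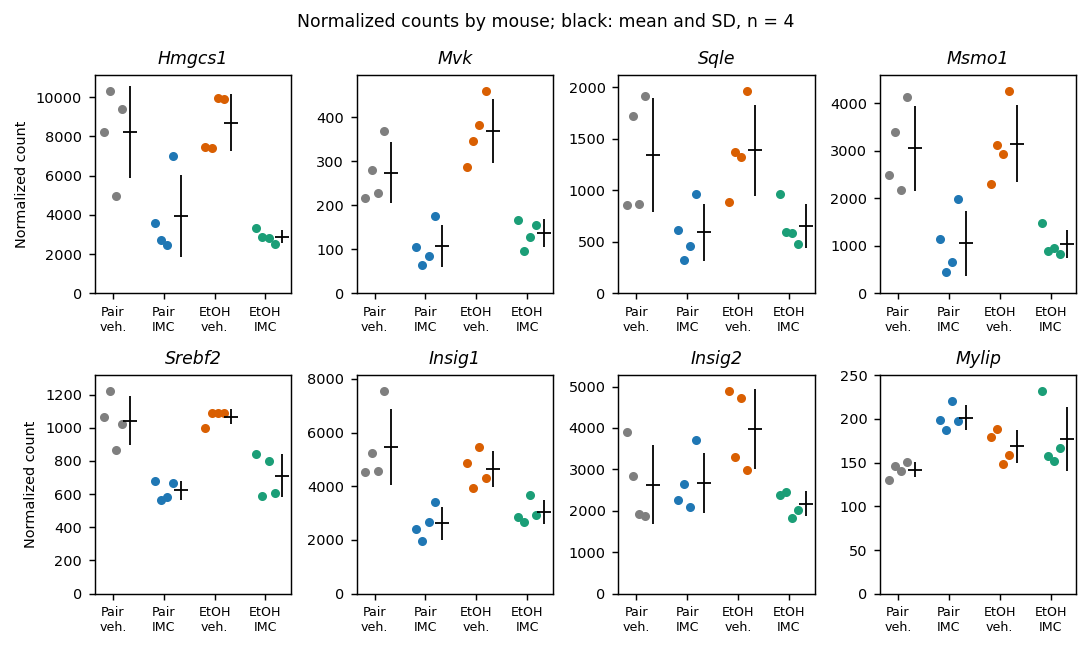
Each point is the normalized count (linear axis from 0) of 1 mouse in Pair vehicle, Pair IMC, EtOH vehicle or EtOH IMC, and black marks give the group mean and SD (n = 4) for 8 members. Hmgcs1, Mvk, Sqle, Msmo1, Srebf2 and Insig1 are lower with IMC in both diets, Insig2 is lower with IMC in ethanol-fed mice (2172 from 3978), and Mylip is higher with IMC in pair-fed mice (201 from 142).

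The 8 genes from lanosterol to cholesterol all fell in the average over both diets. In pair-fed mice 4 passed the test and in ethanol-fed mice 7 did, with medians of -0.69 and -0.95. Msmo1 (ENSMUSG00000031604, chr8:64718139-64733792, minus strand), the methyl sterol oxidase, was at 2482, 3386, 2179 and 4136 in Pair vehicle and 1136, 448, 659 and 1984 in Pair IMC. Its values with ethanol were 2302, 3112, 2922 and 4259 in EtOH vehicle and 1478, 897, 948 and 835 in EtOH IMC. Groups overlapped in neither diet, although library 8 (1984) came close to the lowest Pair vehicle mouse (2179). Msmo1 differed by -1.71 ± 0.34 (adjusted p = 0.00518) and by -1.60 ± 0.34 (adjusted p = 0.00326), and its average over diets, -1.65 ± 0.24, was the largest fall of the 28. Hsd17b7 (ENSMUSG00000026675, chr1:169949535-169969241, minus strand), a sterol ketone reductase, was at 1023, 1271, 845 and 1397 in Pair vehicle and 604, 552, 631 and 826 in Pair IMC. With ethanol it was at 946, 1044, 1250 and 1464 in EtOH vehicle and 841, 430.5, 641 and 448 in EtOH IMC. It overlapped in neither diet and differed by -0.78 ± 0.20 (adjusted p = 0.023) and by -1.03 ± 0.20 (adjusted p = 0.0021). Dhcr7 (ENSMUSG00000058454, chr7:143823145-143848410, plus strand), which reduces 7-dehydrocholesterol to cholesterol, was at 1157, 1519, 863 and 1284 in Pair vehicle and 649, 398, 490.2 and 1258 in Pair IMC. The ethanol-fed mice held 1089, 1760, 1659 and 1907 in EtOH vehicle and 746, 691, 689 and 551 in EtOH IMC. In pair-fed mice library 8 exceeded the vehicle libraries 10 and 14, and in ethanol-fed mice no IMC value reached a vehicle value. Dhcr7 differed by -0.90 ± 0.27 (adjusted p = 0.0413) and by -1.24 ± 0.27 (adjusted p = 0.00365). The pair-fed call of Dhcr7 was lost when any 1 of 9 libraries was left out (adjusted p up to 0.146, without library 4) and that of Hsd17b7 without library 12, 16, 2, 4 or 6 (up to 0.0772).

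Tm7sf2 (ENSMUSG00000024799, chr19:6062821-6068373, minus strand), a sterol reductase of the nuclear envelope and endoplasmic reticulum, was at 1905, 2049, 1781 and 1828 in Pair vehicle and 1360, 1112, 1146 and 1736 in Pair IMC. Its ethanol-fed values were 1192, 1649, 1326 and 1727 in EtOH vehicle and 980.3, 1248, 945 and 938 in EtOH IMC. The pair-fed groups did not overlap, the ethanol-fed groups overlapped through library 11, and the differences were -0.52 ± 0.14 (adjusted p = 0.0272) and -0.51 ± 0.14 (adjusted p = 0.0156). Single omissions ended its pair-fed call (library 10, 12, 4 or 6, adjusted p up to 0.098) and its ethanol-fed call (library 3 or 7, up to 0.0565), and 12.1% of its exon length is shared with Vps51 on the same strand. Sc5d (ENSMUSG00000032018, chr9:42251595-42264256, minus strand), the sterol desaturase, was at 10639, 9120, 6943 and 9956 in Pair vehicle and 6159, 5506, 5942 and 9230 in Pair IMC. Among ethanol-fed mice the values were 9762, 10266, 10371 and 11607 in EtOH vehicle and 5634, 6034, 6253 and 5017 in EtOH IMC. The ethanol-fed groups were far apart, with the highest IMC mouse at 6253 and the lowest vehicle mouse at 9762. Sc5d differed by -0.46 ± 0.15 (adjusted p = 0.0594) in pair-fed mice, -0.63 (adjusted p = 0.00512) without library 8, and by -0.87 ± 0.15 (adjusted p = 0.000668) in ethanol-fed mice.

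Nsdhl (ENSMUSG00000031349, chrX:72918557-72958514, plus strand), which removes a carboxyl group during demethylation of the sterol, was at 1193, 1295, 909 and 1346 in Pair vehicle and 929, 498, 505 and 1542 in Pair IMC. With ethanol it was at 661, 1079, 945 and 1170 in EtOH vehicle and 359.8, 751, 303 and 325 in EtOH IMC. Library 8 exceeded every vehicle mouse, and in ethanol-fed mice library 11 lay above the lowest vehicle mouse. Nsdhl differed by -0.60 ± 0.32 (adjusted p = 0.256) in pair-fed mice, -0.93 (adjusted p = 0.0445) without library 8, and -1.22 ± 0.32 (adjusted p = 0.0122) in ethanol-fed mice. Ebp (ENSMUSG00000031168, chrX:8185329-8193512, minus strand), the sterol isomerase, was at 2388, 2603, 2158 and 2300 in Pair vehicle and 2057, 1743, 1711 and 2887 in Pair IMC. The ethanol-fed values were 2051, 2300, 1905 and 2309 in EtOH vehicle and 1400, 1765, 1398 and 1565 in EtOH IMC. It was lower in every EtOH IMC mouse than in any EtOH vehicle mouse, by -0.48 ± 0.13 (adjusted p = 0.0171, and 0.0503 without library 7), and differed by -0.20 ± 0.13 (adjusted p = 0.379) in pair-fed mice, -0.36 (adjusted p = 0.0332) without library 8. Cyp51 (ENSMUSG00000001467, chr5:4081145-4104746, minus strand), lanosterol demethylase, was at 2878, 3882, 2277 and 4207 in Pair vehicle and 2177, 1260, 1327 and 3347 in Pair IMC. Cyp51 stood at 1930, 3112, 2857 and 3506 in EtOH vehicle and 1852, 2688, 1347 and 1475 in EtOH IMC. Groups overlapped in both diets, the single-diet differences were -0.78 ± 0.29 (adjusted p = 0.0938) and -0.65 ± 0.29 (adjusted p = 0.116), and the average was -0.72 ± 0.20 (adjusted p = 0.014). Without library 8 the pair-fed value was -1.06 (adjusted p = 0.0166).

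The mRNA of SREBP2 itself fell with IMC, and so did that of Insig1, while Scap did not pass the test in either diet. Srebf2 (ENSMUSG00000022463, chr15:82147181-82205379, plus strand) was at 1064, 1221, 863 and 1020 in Pair vehicle and 676, 564, 585 and 664 in Pair IMC. In ethanol-fed mice it was at 997, 1086, 1086 and 1090 in EtOH vehicle and 844, 591, 798 and 609 in EtOH IMC. All 8 IMC mice lay below all 8 vehicle mice, and library 8 did not stand out for this gene. Srebf2 differed by -0.74 ± 0.12 (adjusted p = 0.00145) and by -0.60 ± 0.12 (adjusted p = 0.00216). Insig1 (ENSMUSG00000045294, chr5:28071363-28078662, plus strand), itself a known SREBP2 target that holds SCAP in the endoplasmic reticulum, was at 4533, 5249, 4558 and 7549 in Pair vehicle and 2420, 1954, 2681 and 3427 in Pair IMC. With ethanol it was at 4866, 3933, 5451 and 4317 in EtOH vehicle and 2866, 2667, 3683 and 2919 in EtOH IMC. The groups overlapped in neither diet, and the differences were -1.06 ± 0.17 (adjusted p = 0.00148) and -0.61 ± 0.17 (adjusted p = 0.0184), the second lost without library 5 or 11 (adjusted p up to 0.0599). Scap (ENSMUSG00000032485, chr9:110333288-110384950, plus strand), the escort of SREBP2, ranged from 1541 to 1857 in Pair vehicle, 1478 to 2084 in Pair IMC, 1377 to 1534 in EtOH vehicle and 1359 to 1546 in EtOH IMC. Its intervals with IMC were -0.15 to 0.29 and -0.20 to 0.24, and 13.2% of its exon length lies under a transcript of the other strand.

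Insig2 (ENSMUSG00000003721, chr1:121304353-121332589, minus strand), the other INSIG gene, which in liver has a transcript known to rise in fasting, was called in ethanol-fed mice only. It was at 3914, 2837, 1922 and 1865 in Pair vehicle and 2270, 2639, 2086 and 3709 in Pair IMC. The ethanol-fed values were 4891, 3303, 4725 and 2992 in EtOH vehicle and 2378, 2460, 1822 and 2027 in EtOH IMC. Pair-fed mice overlapped broadly, and in ethanol-fed mice all IMC values were below all vehicle values. Insig2 differed by 0.06 ± 0.23 (adjusted p = 0.907) in pair-fed and -0.85 ± 0.23 (adjusted p = 0.0129) in ethanol-fed mice. The difference between the diets was -0.91 ± 0.32 (adjusted p = 0.179), with an interval from -1.58 to -0.23, which did not pass the adjusted test.

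Of the 5 members in sterol transport and receptor turnover 2 fell and 1 rose in pair-fed mice, and 2 fell in ethanol-fed mice. Stard4 (ENSMUSG00000024378), a cytosolic cholesterol carrier, was at 2112, 2174, 2534 and 3419 in Pair vehicle and 1585, 1479, 1962 and 1949 in Pair IMC. Ethanol-fed livers held 2161, 2212, 2224 and 2501 in EtOH vehicle and 1579, 1543, 1543 and 1188 in EtOH IMC. Every IMC mouse lay below every vehicle mouse of its diet, by -0.54 ± 0.14 (adjusted p = 0.0223) and -0.64 ± 0.14 (adjusted p = 0.00363), and the pair-fed call was lost without library 16, 2 or 4 (adjusted p up to 0.0811). Tmem97 (ENSMUSG00000037278, chr11:78541817-78550777, minus strand), a sterol-responsive membrane protein that binds NPC1, was at 894, 937, 1073 and 1241 in Pair vehicle and 694, 587, 551 and 826 in Pair IMC. Its ethanol-fed values were 652, 911, 846 and 940.1 in EtOH vehicle and 515, 715, 569 and 475 in EtOH IMC. The ethanol-fed groups overlapped through library 11 and library 1, and the differences were -0.65 ± 0.15 (adjusted p = 0.0146) and -0.56 ± 0.15 (adjusted p = 0.0147). Without library 4 or 6 the adjusted p in pair-fed mice was up to 0.056. Npc1 (ENSMUSG00000024413) and Npc2 (ENSMUSG00000021242, chr12:84754562-84773152, minus strand) encode the proteins that export cholesterol from lysosomes. Npc1 was at 2007, 1646, 2589 and 2051 in Pair vehicle and 1688, 1550, 1896 and 1752 in Pair IMC. With ethanol it was at 1485, 1661, 1245 and 1820 in EtOH vehicle and 816, 1486, 1483 and 1072 in EtOH IMC. Its IMC groups overlapped the vehicle groups in both diets, and the differences were -0.25 ± 0.17 (adjusted p = 0.384) and -0.38 ± 0.17 (adjusted p = 0.121). Npc2 was at 955, 1044, 1103 and 1312 in Pair vehicle and 1030, 999.6, 959 and 1216 in Pair IMC. The ethanol-fed Npc2 values were 895, 1049, 789 and 952 in EtOH vehicle and 713, 808, 859 and 865 in EtOH IMC. Npc2 overlapped in both diets as well, with differences of -0.07 ± 0.11 (adjusted p = 0.75) and -0.18 ± 0.11 (adjusted p = 0.255).

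Mylip (ENSMUSG00000038175, chr13:45389742-45412022, plus strand) encodes an E3 ligase, also called IDOL, that sends lipoprotein receptors to degradation and is a known target of the sterol receptor LXR rather than of SREBP2. It was at 130.4, 146, 141 and 151 in Pair vehicle and 199, 187, 221 and 198 in Pair IMC. In ethanol-fed mice it was at 179, 189, 148 and 159 in EtOH vehicle and 232, 158, 152 and 167 in EtOH IMC. The highest Pair vehicle mouse (151) lay below the lowest Pair IMC mouse (187), whereas the ethanol-fed groups overlapped, with library 9 at 232. Mylip differed by 0.50 ± 0.12 (adjusted p = 0.0183) in pair-fed mice, a mean of 201 from 142, and by 0.05 ± 0.12 (adjusted p = 0.789) in ethanol-fed mice. Its pair-fed call was lost without library 6 (adjusted p = 0.0633), as was its call in the average over diets (adjusted p = 0.0546).

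**Figure D3:**
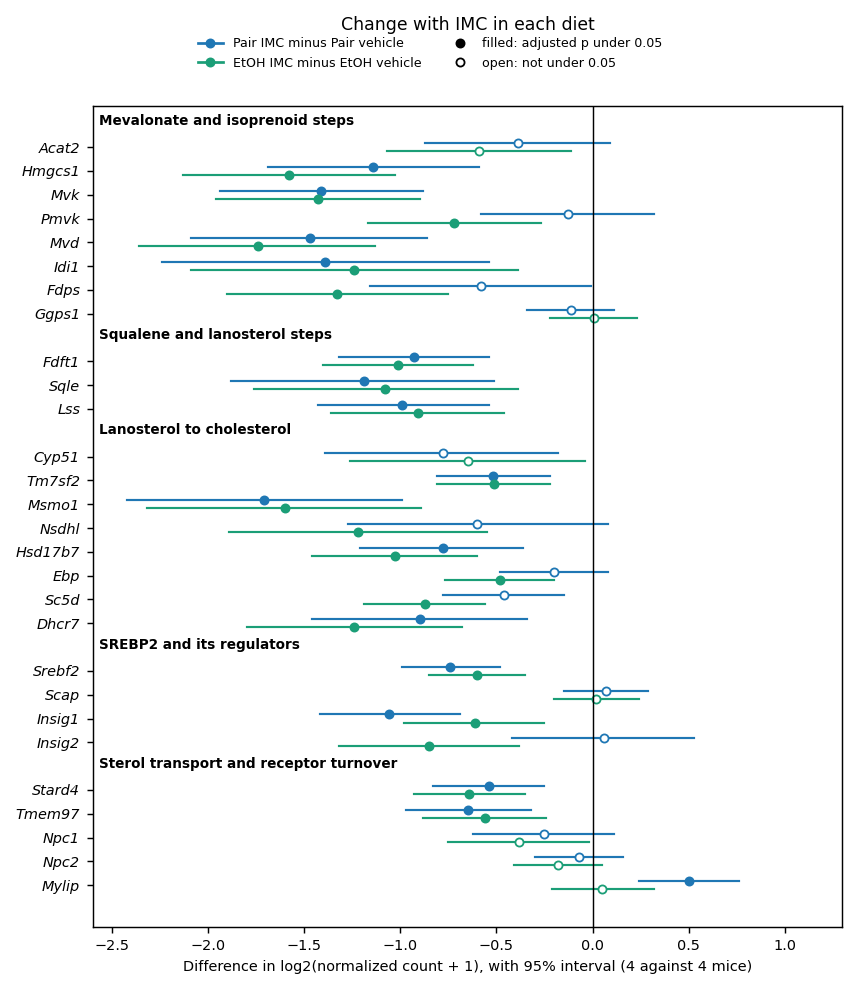
Points give the IMC difference in log2(normalized count + 1) for each member in pair-fed (blue) and ethanol-fed (green) mice, with 95% intervals, and filled points have an adjusted p under 0.05. Most points lie left of 0 in both diets (24 of 28 members), Msmo1 reaches -1.71 in pair-fed mice and Mvd -1.74 in ethanol-fed mice, and Mylip alone is filled to the right of 0.

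The size of the IMC effect was compared between diets by its own contrast, and 0 of 28 members passed in limma, beside 1.11% of all genes, and 0 passed in edgeR or DESeq2. At an unadjusted p under 0.05 there were 2, Insig2 and Mylip, beside 15.3% of all genes, with adjusted p of 0.179 and 0.229. For the other 26 the 95% interval of the difference included 0. These intervals were wide. For Fdps it ran -1.56 to 0.07, for Pmvk -1.23 to 0.04, for Nsdhl -1.58 to 0.33, for Hmgcs1 -1.22 to 0.34 and for Msmo1 -0.91 to 1.12. The genes called in 1 diet alone were therefore not shown to respond differently in the other. Insig1 was the member with the largest difference in the other direction, at 0.45 ± 0.25 (adjusted p = 0.401), which did not pass the test.

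Neighbouring pathways were read in the same fit, where 9.48% of all genes were called with IMC in pair-fed and 21.5% in ethanol-fed mice. Counts called in the 3 lists of 10 genes below lay near or under these shares and are no result about those lists. Lipogenesis and other targets of SREBP1c, the sister factor of SREBP2 that drives fatty acid synthesis, had 4 of 16 genes called with IMC in pair-fed mice (2 lower, 2 higher, median 0.10) and 11 of 16 lower in ethanol-fed mice (median -0.88). In pair-fed mice Srebf1, which encodes SREBP1, fell by 0.79 ± 0.12 and Fads2, a fatty acid desaturase, by 0.57 ± 0.16, while Scd1, the stearoyl-CoA desaturase, was higher by 1.07 ± 0.33 and Me1, malic enzyme, by 0.72 ± 0.20. In ethanol-fed mice Thrsp, a lipogenic regulator, fell by 1.68 ± 0.32 and Fads2 by 1.43 ± 0.16. For this list 3 of 16 passed the test of the difference between diets, all with a more negative IMC effect in ethanol-fed mice, in a contrast that cannot be told apart from library number. These were Scd1 at -2.05 ± 0.46, Elovl5, a fatty acid elongase, at -1.43 ± 0.24, and Acly, ATP-citrate lyase, at -1.13 ± 0.27, the last named after its value was seen. The medians of this difference were -0.82 for the lipogenic list and -0.11 for the 28 members, and no test compared the lists. Of 10 genes of SREBP cleavage and sterol-regulated degradation 1 was higher with IMC under pair-feeding. With ethanol 2 were higher, among them Rnf145, a ubiquitin ligase of the endoplasmic reticulum (0.56 ± 0.17). Of 10 LXR pathway and efflux genes 0 passed in pair-fed mice, where 0 also had an unadjusted p under 0.05, and 1, Pltp, a phospholipid transfer protein, fell by 1.02 ± 0.22 in ethanol-fed mice. Of 10 genes of the isoprenoid branch beyond farnesyl diphosphate 0 passed in pair-fed mice, where 2 had an unadjusted p under 0.05, and 1, Icmt, a methyltransferase of prenylated proteins, was higher by 0.44 ± 0.10 in ethanol-fed mice. The share of all genes at an unadjusted p under 0.05 with IMC in pair-fed mice is not given here.

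**Figure D4:**
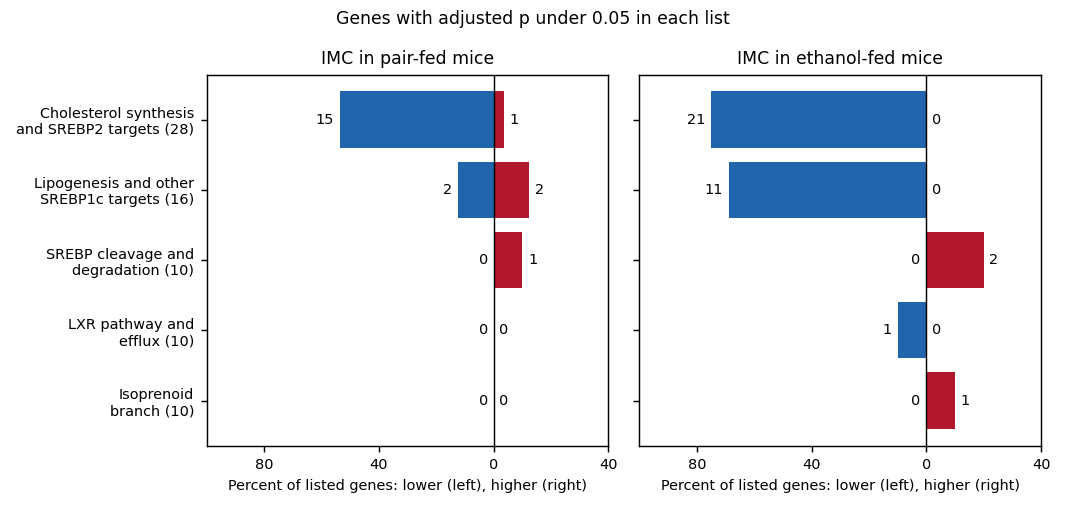
Bars give the percent of each gene list that passed the limma test (adjusted p under 0.05) with IMC, lower to the left and higher to the right, in pair-fed and ethanol-fed mice, with gene numbers at the bar ends. The cholesterol list reaches left in both panels (15 and 21 of 28), and the lipogenic list mainly in ethanol-fed mice (11 of 16, against 2 in pair-fed mice).

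Ethanol without IMC called 0 of 28 members with limma, beside 11.9% of all genes. An unadjusted p under 0.05 was found for 7 (Pmvk, Ggps1, Tm7sf2, Scap, Insig2, Npc1 and Npc2), beside 27.8% of all genes, DESeq2 called Pmvk alone, as did limma on the libraries of this comparison, and edgeR called 0. On the deposited scale 2 passed, Insig2 and Mylip, both higher with ethanol. Pmvk was closest, at -0.67 ± 0.21 (adjusted p = 0.05), just above the threshold before rounding, with every EtOH vehicle mouse (468, 584, 583 and 669) below every Pair vehicle mouse (874, 999, 780.4 and 1001). Insig2 differed by 0.63 ± 0.23 (adjusted p = 0.0765). Hmgcs1 differed by 0.12 ± 0.26 (adjusted p = 0.808) and Mvd by 0.04 ± 0.29 (adjusted p = 0.947), and their intervals of -0.44 to 0.67 and -0.58 to 0.66 leave room for changes either way. The groups did not overlap for 3 members, Pmvk, Tm7sf2 and Scap, beside 19% of all genes. These counts lay near or under the shares of all genes and are no result about the members as a set. The median over the members was -0.14, against -0.01 for all genes.

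Among mice on IMC, 5 of 28 members were lower with ethanol, beside 16.4% of all genes that changed in either direction (8.57% lower). The number called lay near the share in either direction and is no result about the members as a set. Pmvk differed by -1.27 ± 0.21 (adjusted p = 0.000929), Fdps by -0.92 ± 0.27 (adjusted p = 0.0296), Npc1 by -0.54 ± 0.17 (adjusted p = 0.0391), Ebp by -0.43 ± 0.13 (adjusted p = 0.0377) and Npc2 by -0.37 ± 0.11 (adjusted p = 0.0275). Pmvk was at 350.3 ± 69 (mean ± SD, n = 4) in EtOH IMC and 894 ± 430.4 in Pair IMC, and no EtOH IMC mouse reached the Pair IMC range. Npc1 and Npc2 did not overlap either, so the groups were apart for 3 members, which is under the 19.2% of all genes. Without library 8, or without library 2, Pmvk was the only member called. There were 8 calls without library 4, 3 without library 13 and 2 without library 9 or 15, with the counts over all genes not given here. On the deposited scale, where ethanol-fed libraries stand higher, 2 passed, Pmvk lower and Srebf2 higher, so the calls of Fdps, Npc1, Ebp and Npc2 depend on the common scale. The comparison shares the Pair IMC mice with the pair-fed IMC contrast, and library 8, the highest Pair IMC mouse for Fdps, Ebp, Npc2 and Pmvk, enters both.

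**Figure D5:**
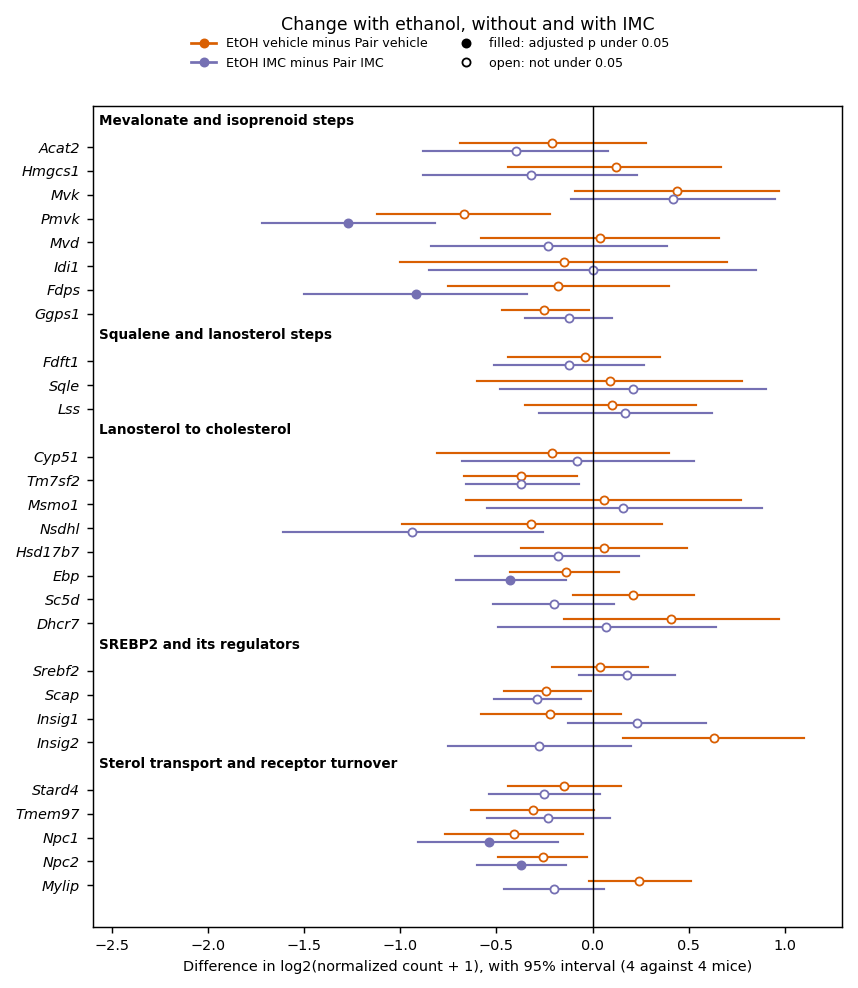
Points give the ethanol difference in log2(normalized count + 1) for each member without IMC (orange, EtOH vehicle minus Pair vehicle) and with IMC (purple, EtOH IMC minus Pair IMC), with 95% intervals, and filled points have an adjusted p under 0.05. No orange point is filled, and 5 purple points are, with Pmvk farthest left at -1.27.

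Levels differed widely among the members. Per kilobase of exon, the mean normalized count in Pair vehicle was highest for Sc5d (1883), Hmgcs1 (1789), Insig1 (1769) and Ebp (1023), and lowest for Mylip (43.9) and Ggps1 (34.3). Both abundant and scarce members fell, since Hmgcs1 stood near the top of this order and Mvk (102) near its foot. Lss (86.7) stood there too, but its exon length was taken as 10787 bases, and its mean before this division was 936.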

How the data were processed

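Liver RNA was extracted on Qiagen RNeasy columns and libraries were made with an Illumina TruSeq Directional kit. The authors trimmed reads with Trim Galore, checked them with FastQC and aligned them to mm10 with STAR, and their methods name edgeR upper-quantile normalization. The counting tool is not given in the sources used here, and the methods describe single-end reads of 100 bases where the labels describe paired-end reads. The deposited values are a normalized signal, and behave as gene read counts divided by 1 factor per library. How these factors were set is not given in the sources used here beyond the normalization named above. Median ratios to a reference over all libraries were 0.934 to 0.939 in pair-fed and 1.066 to 1.072 in ethanol-fed libraries. Whole reads were recovered in every library (tolerance 0.01 of a read). Here all 16 libraries were rescaled by a median ratio over 13121 genes. Genes at 10 or more in at least 4 libraries (12537) were tested on log2(value + 1) with limma 3.58.1 (R 4.3.3), a mean per group, a mean-variance trend and 1 estimate of spread over all 16 mice, two-sided, with Benjamini-Hochberg adjustment and a threshold of 0.05. The exact permutation test ran over the 35 divisions of 8 mice. Positions of genes were taken from the GENCODE vM21 annotation of GRCm38. Alternatives were the deposited scale, quantile normalization, pseudocounts of 0.1 and 5, no filter, a mean of at least 100, no trend, only the libraries compared, library number as a term, omission of each library in turn, and DESeq2 1.42.0 and edgeR 4.0.16 run on the recovered reads. edgeR without library 15, in which 1 read is worth nearly 1, was added after seeing the data. Members by role were all named, with each mouse's value where any contrast passed, and of each other list at most the 2 largest rises and 2 largest falls that passed. The values of 1 gene that this rule names are not reported here. The members and lists were chosen with earlier results of these data known.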

Additional observations from a re-analysis of the deposited data

Results flagged for a closer look

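Within a group of 4 mice a value was noted when its gap to the nearest other mouse, divided by the range of the group, exceeded Dixon's 95% critical value for 4 values. This held in 6 of the 112 member and group combinations, where about 5.6 are expected by chance. In EtOH IMC, Mvd was at 158 in library 9 with the others at 119 to 120.5, Tm7sf2 at 1248 in library 11 with the others at 938 to 980.3, and Stard4 at 1188 in library 15 with the others at 1543 to 1579. In Pair IMC, Lss was at 769.7 in library 8 with the others at 373 to 417, and Ggps1 at 168 in library 6 with the others at 141 to 144. In EtOH vehicle, Srebf2 was at 997 in library 1 with the others at 1086 to 1090. Library 8 was also the highest Pair IMC liver for 22 of the 28 members, and the cause was not tested.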

How the results depend on the processing

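The 65 gene calls of the 6 comparisons gave 1820 values under the alternatives, of which 1668 kept the call, 152 lost it and 0 turned direction. For a comparison of 2 groups these include omissions of libraries outside it, which enter only through the shared spread. The kept values are therefore not independent checks. Called in every alternative were 7 members with IMC in pair-fed mice (Fdft1, Insig1, Lss, Msmo1, Mvd, Mvk and Srebf2), 14 in ethanol-fed mice, 20 in the average over diets and 1, Pmvk, for ethanol with IMC. Leaving out 1 library at a time moved the member count from 8 to 22 for IMC in pair-fed mice, 16 to 22 in ethanol-fed mice, 20 to 24 for the average, 0 to 1 for ethanol without IMC and 1 to 8 for ethanol with IMC, and left it at 0 for the difference between diets. For ethanol without IMC, where the main count was 0, there were 2 on the deposited scale and 1 with a pseudocount of 5, a mean of at least 100, only the libraries compared, or DESeq2. For ethanol with IMC, where it was 5, there were 2 on the deposited scale, 3 with quantile normalization, 3 without a filter, 2 without the trend, 2 with only the libraries compared, and 2 in edgeR without library 15. In pair-fed mice, fitting only the libraries compared ended the calls of Hmgcs1, Idi1, Sqle, Dhcr7 and Stard4, and DESeq2 and edgeR those of Idi1 and Dhcr7. Library number as a term leaves the average over diets as it was by construction. Apart from the scale and the number of samples or genes, which the alternatives set, the cause of these moves was not tested. No paired analysis was possible because the groups share no replicate number. Every member held a normalized count of at least 63.3 in every library.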
